A study of Rattus norvegicus with 8 samples.

Results

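Tumours given rapamycin with clorgyline were compared with tumours given rapamycin with rasagiline, 2 tumours in each group and 4 of the 8 tumours in the series. The members were chosen by treatment label alone. All 8 tumours were formed by ELT3-V3 cells, of a rat uterine leiomyoma line that lacks functional tuberin, which were injected subcutaneously into 6-week-old NOD-scid females. NOD-scid hosts lack functional B and T lymphocytes. Mice entered their group at random once a tumour measured 150 to 200 mm3. Clorgyline was given at 10 mg/kg per day and rasagiline at 1 mg/kg per day. Because these doses are unmatched, drug and dose cannot be told apart. The labels give rapamycin as 0.25 mg/kg per day for the group on rapamycin alone and do not repeat that dose for the combinations. The other 4 tumours received rapamycin alone (2) or vehicle (2), which was 0.25% Tween-80 with carboxymethylcellulose at 0.2%. All tumours come from 1 cell line. The labels do not say that each tumour came from its own mouse, so p-values measure only the spread between these tumours.

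Loss of tuberin leaves the kinase complex mTORC1 active, and rapamycin inhibits that complex. ELT3 tumours are used for this reason as a model of lymphangioleiomyomatosis, a lung disease of smooth-muscle-like cells. Monoamine oxidases A and B sit on the outer mitochondrial membrane and deaminate amines, releasing an aldehyde, ammonia and hydrogen peroxide. The A form prefers serotonin and noradrenaline, and the B form prefers phenylethylamine and also acts on methylated histamine. Clorgyline inhibits the A form selectively and rasagiline the B form. Both carry a propargylamine group that binds the flavin of the enzyme irreversibly. In clorgyline this group is on a methylated amine joined by a propyl chain to a chlorinated phenoxy ring, and in rasagiline it is on the amine of an indane ring. The comparison asks whether tumours under the 2 combinations differed in gene expression.

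Expression was measured by RNA sequencing as TPM, transcript abundance scaled to gene length and to a sum of 1000000 in each library. Sequencing depth was therefore unknown. The table gives Ensembl rat gene IDs without symbols, and no symbol was assigned to any of the 23918 IDs. The identity of the cells, the share of host cells, the genes of the monoamine oxidases and 38 lists of pathways and cell types were for this reason not examined here. In bulk tissue, fewer cells of a type and less RNA per cell cannot be told apart. Between 17626 and 18012 genes had a value above 0 in a combination tumour. A gene was tested if it reached 1 TPM in at least 2 of these 4 tumours, and 13261 genes did.

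The clorgyline and rasagiline combinations differed in 3 genes by the limma test (Benjamini-Hochberg adjusted p below 0.05), which is 0.0226% of the genes tested. All 3 were lower with clorgyline, and in each the 2 rasagiline tumours lay above the other 6 tumours of the series. No gene was higher with clorgyline by this test, although 1 was when 0.1 or 5 TPM was added before the log in place of 1 TPM. The unadjusted p was below 0.05 in 624 genes (4.71%), where 663 would be 5% of those tested. Of the 624, 188 were higher (1.42%) and 436 lower (3.29%) with clorgyline. Those 30.1% higher became 53.6% after each library was rescaled to the same median and 51.6% after quantile normalization, so the larger direction changed with the scaling.

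ENSRNOG00000016837 had the smallest p. It stood at 2.06 and 2.53 TPM in the clorgyline tumours and at 37.7 and 37.0 TPM in the rasagiline tumours. The controls were at 1.38 and 1.94 TPM and the tumours on rapamycin alone at 1.78 and 3.05 TPM. The rasagiline tumours were thus nearly equal to each other and far from all others, whose values lay within a narrow band. The group means were 2.30 ± 0.337 and 37.4 ± 0.501 TPM (SD, n = 2 each), a 16.3-fold lower level with clorgyline (log2 difference -3.54, SE 0.26, 95% interval -4.15 to -2.94; limma adjusted p = 0.0225).

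ENSRNOG00000049695 showed the largest difference among the called genes. It was nearly silent in the clorgyline tumours, at 0.242 and 0.271 TPM, and stood at 19.4 and 24.0 TPM in the rasagiline tumours. With both clorgyline values below 1 TPM, it passed the filter only through the rasagiline tumours. The controls held 0.143 and 0.479 TPM and the rapamycin tumours 0.807 and 2.91 TPM, so both clorgyline tumours lay within the range of the controls. The log2 difference was -4.17 (SE 0.384, 95% interval -5.07 to -3.27; limma adjusted p = 0.0375). It was not called with 0.1 TPM added before the log, with a filter of 5 TPM and under both rescalings (limma adjusted p = 0.123, 0.105, 0.0803 after quantile normalization and 0.0874 after median rescaling). The size of this difference depended on the pseudocount, at -5.93 with 0.1 TPM added and -2.34 with 5 TPM added (log2; ENSRNOG00000016837 was at -3.97 and -2.54).

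The third called gene had the highest level of the 3 in every tumour. The clorgyline tumours held 18.1 and 23.3 TPM, within the 14.3 to 24.2 TPM of the controls and the rapamycin tumours. The rasagiline tumours held 127 and 105 TPM. The mean was 5.60-fold lower with clorgyline (20.7 ± 3.67 against 116 ± 15.9 TPM, SD, n = 2 each; log2 difference -2.43, SE 0.202; limma adjusted p = 0.0268).

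**Figure D1:**
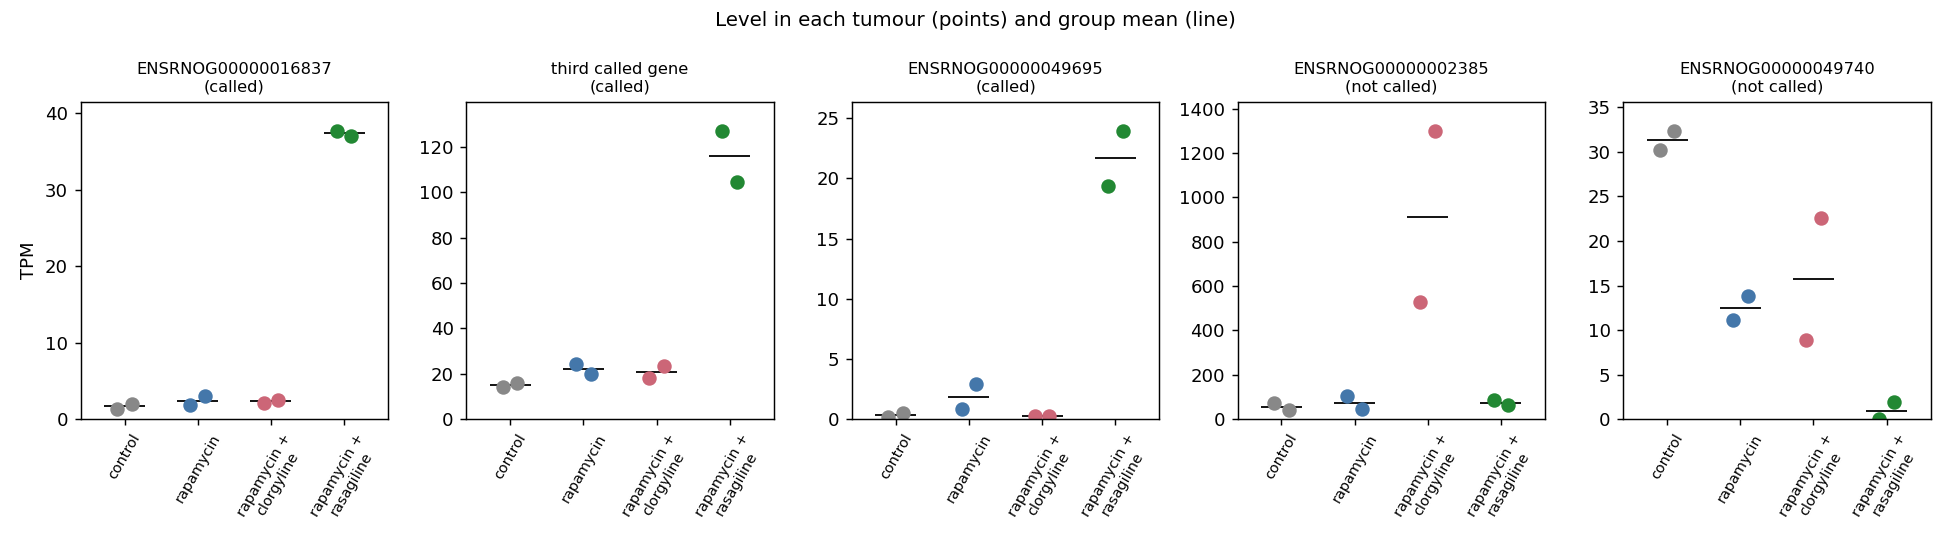
TPM (linear axes that start at 0) in each tumour for the 3 genes called between the combinations and for 2 others. The 2 others were named as the largest differences higher with clorgyline than with rasagiline. Points are single tumours and lines are means of 2. In the 3 called genes both rasagiline tumours stand above the other 6 tumours, and in ENSRNOG00000002385 both clorgyline tumours do.

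These calls rest on a spread estimated from all 8 tumours, and each of the 3 was lost when any single control or combination tumour was left out. The limma adjusted p of ENSRNOG00000016837 was then between 0.062 and 0.0774 without a control and between 0.169 and 0.205 without a combination tumour. The count was 0 without control replicate 1 or 2, clorgyline replicate 1 or 2, or rasagiline replicate 2, and 1 without rasagiline replicate 1, which was none of the 3. In these runs the log2 difference ranged from -3.65 to -3.44 for ENSRNOG00000016837 and from -4.31 to -4.02 for ENSRNOG00000049695. Leaving out either rapamycin tumour gave 4 called genes, the same 3 and 1 higher with clorgyline. In the alternative that weighted libraries by their spread, the rapamycin tumours had the lowest weights, at 0.505 each against 0.933 to 1.55 for the others. With no filter on low values 20134 genes were tested and none was called (limma; 1147 at an unadjusted p below 0.05).

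On the clorgyline side no gene passed the test, and the 2 IDs named are the largest differences by the rule for named genes. ENSRNOG00000002385 stood at 526 and 1300.4 TPM in the clorgyline tumours, against 83.7 and 63.6 TPM with rasagiline, 72.5 and 40.5 TPM in controls and 102 and 45.6 TPM with rapamycin alone. Both clorgyline tumours lay above the other 6, which spanned 40.5 to 102 TPM. They were further apart in TPM than the other 6, but at a higher level, and the distances were not compared on the log2 scale. The mean was 12.4-fold higher with clorgyline (log2 difference 3.49, SE 0.526, 95% interval 2.26 to 4.72; limma adjusted p = 0.239, not called). The log2 difference was 4.14 without clorgyline replicate 1 and 2.83 without its replicate 2.

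ENSRNOG00000049740 showed another arrangement. Its level was 30.2 and 32.4 TPM in controls, 11.1 and 13.8 TPM with rapamycin alone, 8.85 and 22.6 TPM with clorgyline, and 6.31e-05 and 1.87 TPM with rasagiline. Here the rasagiline tumours were the lowest of the series, and the clorgyline tumours lay on either side of the rapamycin tumours. The log2 difference of 3.17 (SE 0.549) was not called (limma adjusted p = 0.338). It became 5.01 when 0.1 TPM was added before the log and 1.74 when 5 TPM was added. The largest log2 difference of all, 4.32, belonged to a gene at 25.1 and 14.3 TPM with clorgyline and at 4.94e-08 and 0 TPM with rasagiline (SE 1.26; limma adjusted p = 0.771). Its controls were at 2.70e-09 and 24.9 TPM and both rapamycin tumours were listed at 0, so tumours of 1 group also stood apart. This gene passed the filter only through the clorgyline tumours.

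The wider set of large differences was described by a rule that asked for an unadjusted p below 0.01 (171 genes, 1.29% of those tested), no overlap between the combinations and 5 TPM or more as the higher group's mean. It held 81 genes lower and 45 genes higher with clorgyline. Among the 12 largest in the lower direction, log2 differences ran from 2.25 to 4.28 in size. In all 12 both rasagiline tumours lay above the other 6 tumours. The lower rasagiline value exceeded the next tumour by 2.71-fold to 12.1-fold in the 11 genes for which that tumour was above 0. The rasagiline tumours of these genes were close to each other, within 1.5-fold in 9 of 12. Of the remaining 3, the widest apart was a gene listed at 0 in the other 6 tumours and at 6.92 and 46.7 TPM with rasagiline. These genes were picked for high rasagiline or low clorgyline values, so the contrast with clorgyline is not a finding about them. Those below 1 TPM in both clorgyline tumours also passed the filter only through the rasagiline tumours. The p criterion also favours genes whose tumours of a group lie close together. The closeness of the rasagiline tumours is therefore not a finding either. The control and rapamycin tumours took no part in the overlap and size criteria, but the spread within their groups entered the p criterion.

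Among the 12 largest in the higher direction, log2 differences ran from 1.90 to 3.49 in size. The clorgyline tumours were within 1.5-fold of each other in 5 of the 12, under the same p criterion. Both clorgyline tumours lay above the other 6 in 8 genes. The controls took part in the remaining 4, where at least 1 control was as high as a clorgyline tumour. In 8 of the 12, both controls lay above both rapamycin tumours. That was so in 1 of the 12 genes of the lower direction. Over all genes tested, 31.4% had the opposite placing, both controls below both rapamycin tumours, and 17.4% had the controls above. A gene of this kind stood at 97.9 and 86.5 TPM in controls, 11.4 and 14.5 TPM with rapamycin, 85.4 and 54.8 TPM with clorgyline and 20.1 and 13.4 TPM with rasagiline. Its controls and clorgyline tumours were all above its rapamycin and rasagiline tumours (limma adjusted p = 0.228 between the combinations). The gene with the lowest adjusted p on this side (limma, 0.164) was at 12.9 and 13.8 TPM with clorgyline and between 1.97 and 3.68 TPM in the other 6 tumours.

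**Figure D2:**
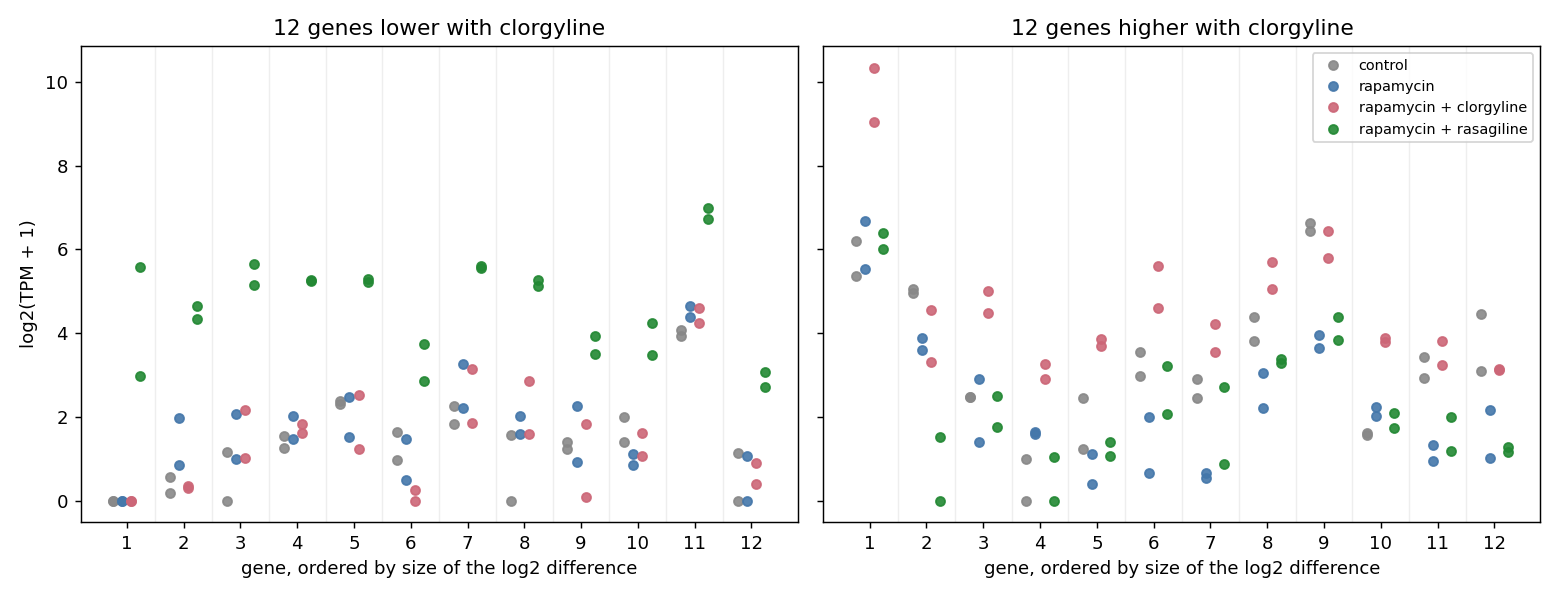
log2(TPM + 1) in all 8 tumours for the 12 largest differences in each direction, with genes ordered by size from left to right and points coloured by group. On the left both rasagiline tumours stand above the other 6 tumours in all 12 genes. On the right both clorgyline tumours do so in 8 of 12.

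The placing of controls and rapamycin tumours was then counted over all genes with a log2 difference of at least 1 and no overlap between the combinations. There were 337 such genes (2.54% of those tested), 147 higher with clorgyline (1.11%) and 190 lower (1.43%). The rasagiline tumours lay above all 6 others in 123 of the 190 (64.7%), and the clorgyline tumours above all 6 others in 71 of the 147 (48.3%). Over all genes tested, without a limit on size, the rasagiline tumours lay above all 6 others in 956 (7.21%) and the clorgyline tumours in 344 (2.59%). Those 956 are among 3609 genes lower without overlap, and the 344 among 1290 higher. The shares of all genes are therefore not comparable with the 64.7% and 48.3%. The low pair lay below all 6 others in 11 genes of each set. Over all genes tested the clorgyline tumours were the lowest pair in 421 (3.17%) and the rasagiline tumours in 162 (1.22%). The rapamycin mean was nearer to the lower combination in 142 of the 190 genes and in 130 of the 147. The controls were nearer to the lower combination in 157 of the 190 and in 85 of the 147. No share over all genes was counted for nearness, so these counts are not a result about the rapamycin or control tumours. In 47 of the 147 genes the controls and clorgyline tumours all lay above the rapamycin and rasagiline tumours, and in 29 of the 190 they all lay below them. Over all genes tested, without a limit on size, the controls and clorgyline tumours all lay above in 256 (1.93%) and below in 876 (6.61%). The 256 are among the 1290 genes higher without overlap, and the 876 among the 3609 lower. These shares of all genes are therefore not comparable with 47 of 147 and 29 of 190 either. The counts are on the deposited scale, where more genes were lower than higher without overlap. They were not repeated over all genes after rescaling, so their order is not compared with that of the 47 and 29. In the mirror arrangement, the controls and rasagiline tumours all lay above in 9 of the 190 genes and below in 3 of the 147. Over all genes tested it was met by 118 (0.89%) and 72 (0.543%). These are among the 3609 genes lower and the 1290 higher without overlap, so the shares are again not comparable. After median rescaling, which gave 177 genes higher (1.33%) and 130 lower (0.98%), the shares of high pairs above all others were 48.6% and 62.3%, and 63 and 18 genes had controls and clorgyline tumours on 1 side. These are descriptions of genes selected on the combinations, with no test.

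The direction of small differences moved with 1 library. Without any limit on size, the combinations did not overlap in 4899 genes (36.9%), of which 1290 were higher with clorgyline (9.73%) and 3609 lower (27.2%). Clorgyline replicate 1 had a median of 14.7 TPM over the tested genes, against 17.0 to 17.2 TPM in the other 3 combination tumours. Its 100 most abundant genes held 36.7% of its TPM, against 32.05% to 32.9%. The median log2 difference over all genes was -0.09, and was -0.0007 without that tumour and -0.19 without clorgyline replicate 2. After median rescaling 2512 genes did not overlap in the higher direction (18.9%) and 2580 in the lower (19.5%). The 3 called genes kept their direction under each scaling.

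**Figure D3:**
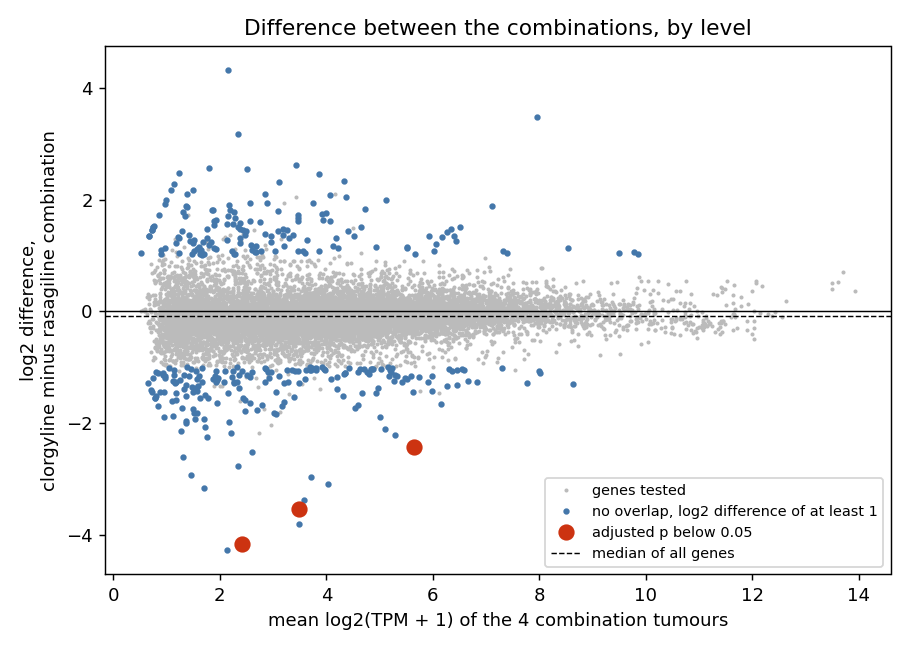
log2 difference (clorgyline minus rasagiline combination) of each of the 13261 genes against its mean log2(TPM + 1) in the 4 tumours. The 3 called genes lie below the cloud, and the dashed line marks the median of -0.09.

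Across genes, tumours of different combinations were only slightly further apart than tumours of the same one. The root mean square log2 difference was 0.510 between the clorgyline tumours and 0.484 between the rasagiline tumours. It was 0.512, 0.517, 0.533 and 0.567 for the 4 pairs made of a tumour from each group. A gap of at least 1 log2 unit set a single tumour apart from the other 3 in 106 genes for clorgyline replicate 1, 140 for clorgyline replicate 2, 111 for rasagiline replicate 1 and 148 for rasagiline replicate 2. The same gap set both clorgyline tumours above both rasagiline tumours in 51 genes, and below them in 55. A gap of 1 tumour against 3 and a gap of 2 against 2 are unlike, so their counts are not compared. Differences between the groups that share no tumour correlated across genes at r = 0.232 when clorgyline replicate 1 was set against rasagiline replicate 1, and at 0.058 when it was set against rasagiline replicate 2. Genes are not independent replicates, and both values use the same 4 tumours.

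**Figure D4:**
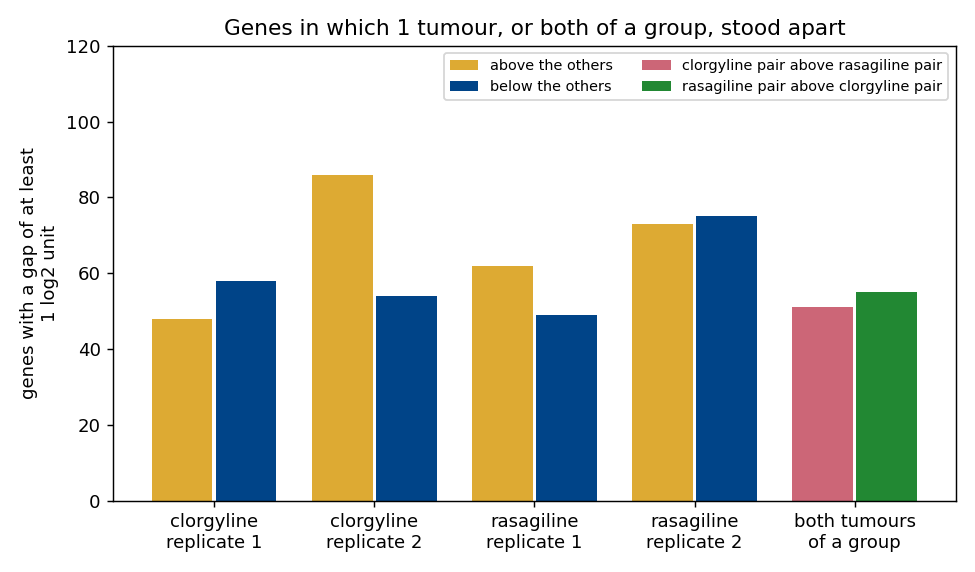
Number of genes in which 1 combination tumour lay at least 1 log2 unit from the nearest of the other 3, or in which both tumours of a combination lay at least that far from both of the other. The pairs, at 51 and 55 genes, lie within the 48 to 86 counted for single tumours in 1 direction.

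The precision depended on the level of a gene. For 69.4% of all genes the 95% interval stayed inside ± 1 log2 unit. The share was 41.5% for 2968 genes with a mean below 5 TPM, 68.5% for 4366 genes from 5 to 20 TPM, 83.1% for 4443 genes from 20 to 100 TPM and 86.4% for 1484 genes above that. The median distance between clorgyline tumours fell from 0.341 log2 units in the lowest class to 0.202 in the highest, and between rasagiline tumours from 0.298 to 0.163. A gene that did not pass the test is therefore not shown to be equal under both drugs. Genes listed at 0 in both tumours of a combination were few. There were 9 with clorgyline and 13 with rasagiline, each at 1 TPM or more in both tumours of the other combination, which the filter required of them. Both tumours of the other combination reached 5 TPM in 2 of the 9 and in 0 of the 13.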

How the data were processed

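The authors deposited 1 table of TPM values with a column for each tumour, and each column matched 1 title. Build rn6 and the tools bedtools, DESeq2, SAMtools 0.1.18 and STAR 2.4.0f1 are listed, without roles, in the submitters' processing notes. How TPM was computed, from which annotation, and whether mouse reads were removed is not given in the sources used here. Since TPM keeps no depth, no counting interval was computed.

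Values were taken as log2(TPM + 1), and folds on this scale understate the change of low genes. limma 3.58.1 in R 4.3.3 fitted 4 group means to all 8 libraries (4 residual degrees of freedom, intensity trend, median prior degrees of freedom 3.39), two-sided. p-values were adjusted over 13261 genes by Benjamini-Hochberg. The fit was also run on simulated data, in 10 runs with 200 changed genes each. These had independent normal noise for each gene and no shift between libraries, so they do not measure how the fit performs on these tumours. Plots used matplotlib 3.10.9 in Python 3.11.15.

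None of the 23918 IDs matched the reference table (47357 genes, assembly GRCr8), so the gene lists and the genes fixed by symbol were not used. The rule names called genes and the largest differences past an unadjusted p of 0.01. At most 2 IDs per direction are printed. On the lower side these are the 2 largest called genes. Other genes are given by values, and the 2 examples on the higher side were chosen after their values were seen. The comparison, rule and lists were chosen with earlier results of these data known. Alternatives were pseudocounts of 0.1 and 5 TPM, 3 other filters, 2 rescalings, no variance trend, array weights, the 4 combination libraries alone, and leaving out each library.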

Additional observations from a re-analysis of the deposited data

How the results depend on the processing

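The 3 genes called between the combinations became 6 at a pseudocount of 5 TPM (5 lower, 1 higher; all 3 included) and 0 with no filter, where 1147 genes against 624 had an unadjusted p below 0.05. At a pseudocount of 0.1 TPM it was 3, of which 2 were lower and 1 higher, with 2 of the original 3 included. It was 2 or 3, all lower, under the other alternatives that kept all libraries or fitted the 4 combination libraries alone. Leaving out single libraries gave 0 to 4 called genes and 463 to 1016 genes at an unadjusted p below 0.05, the highest values without a rapamycin tumour. With only the 4 combination libraries fitted, the third called gene had a limma adjusted p of 0.0801. A group reduced to a single tumour took its spread from the remaining groups. No named difference changed direction under any alternative run. No paired analysis was possible because replicate numbers were given in accession order and pair no tumours. Having 2 tumours a group, unknown depth and the absence of gene symbols limits all of these values.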

Other observations

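Some deposited values were above 0 but below 0.0001 TPM, in 17 to 34 genes per library. Among the 13261 genes tested, 12 held such a value in a combination tumour, and 7 of the 12 reached 5 TPM or more in another combination tumour. Of the 337 genes with a log2 difference of at least 1 and no overlap between the combinations, 4 were among these 12, with ENSRNOG00000049740 as one (6.31e-05 TPM in rasagiline replicate 1). The differences of such genes rest on values close to 0, and their origin was not tested.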
